A study of Mus musculus with 9 samples.

Results

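The genes described here are 10 genes of the neuronal cytoskeleton and growth cone, Map2, Mapt, Tubb3, Stmn2, Nefm, Dpysl3, Gap43, Ncam1, Syn1 and Uchl1, out of 36410 genes listed in the count table. They were chosen by symbol, from a list selected on the knowledge that Stmn2 and Nefm were lower in both Huntington disease (HD) lines than in control cells. The values of the HD-het and HD-homo lines against control are therefore given for the 10 genes as a description with no test, and only the comparison of the HD-homo with the HD-het line, which uses the same HD libraries, is tested, except for Stmn2 and Nefm. The study compared RNA-seq read counts in 3 immortalized striatal cell lines from mouse embryos of strain C57/BL6, obtained from Coriell, with 3 libraries per line. Control cells (STHdhQ7/Q7) carry 7 glutamines in exon 1 of both huntingtin alleles, HD-het cells (STHdhQ7/Q111) carry 7 on 1 allele and 111 on the other, and HD-homo cells (STHdhQ111/Q111) carry 111 on both. Total RNA was poly(A)-selected and made into directional libraries. Since every genotype is represented by a single line, effects of genotype cannot be told apart from differences between lines. Whether the 3 libraries of a line came from separate cultures is not stated for these libraries beyond a general remark in the study's methods that experiments were repeated at least 3 times, so that p-values measure the spread between these libraries, which may be technical. Every pair of replicate libraries differed by more than counting noise, with a variance between 2.20 times that of counting (control replicates 1 and 2) and 39.2 times (HD-homo replicates 2 and 3). Totals ran from 29507665 to 41197931 counts per library, and levels are given as normalized CPM (read counts scaled to a common library total, corrected for composition), for which 3 counts correspond to 0.0710 to 0.101 CPM. Floors and intervals from counts cover counting error only.

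Neurons keep their shape with microtubules and neurofilaments. Map2 and tau (Mapt) bind microtubules in dendrites and axons, Tubb3 is the beta tubulin typical of neurons, stathmin-2 (Stmn2) regulates microtubule assembly in growing axons, and the medium neurofilament chain (Nefm) is part of the axonal filaments. The growth cone is the motile tip of a growing axon, where Gap43 and the collapsin response mediator Dpysl3 act, while the adhesion molecule Ncam1, the vesicle protein synapsin I (Syn1) and the ubiquitin hydrolase Uchl1 are other widely used marks of neurons.

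The striatal and neuronal labels were checked against marker genes. Of 10 neuronal markers, Rbfox3, Snap25, Syt1 and Nefl had at most 3 counts in every library, and only Eno2, a glycolytic enzyme of neurons, reached 1 CPM in a line. The summed level of the neuronal markers was 5.02 CPM in control, 15.8 CPM in HD-het and 5.69 CPM in HD-homo cells, of which Eno2 made up 4.53, 14.9 and 4.79 CPM. Without Eno2 the sum was 0.372 to 0.560 CPM in control, 0.629 to 1.07 in HD-het and 0.674 to 1.31 in HD-homo libraries. That remainder was above control in both HD lines, which overlapped each other. Among 14 markers of striatal medium spiny neurons, the dopamine receptor Drd1 was at 0 counts in all libraries and Drd2 and Gad1 had at most 3. Their sum of 98.5 CPM in control, 121.2 CPM in HD-het and 173.4 CPM in HD-homo cells was mostly that of the transcription factor Foxp1, at 93.8, 114.0 and 167.8 CPM. Of the 14 markers, 10 had over 3 counts in some library, among them the phosphodiesterase Pde10a at 5.02 CPM in HD-het cells and Penk at 2.42 CPM in HD-homo cells. Several defining markers of mature and striatal neurons were thus at or near 0 in all 3 lines while others were detected at low levels, and the word neuronal names here what the genes are known for.

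The 8 neural progenitor markers, led by nestin (Nes) and with Hes5 at 0, summed to 693.5 CPM in control, 987.6 CPM in HD-het and 39.6 CPM in HD-homo cells. The 10 markers of fibroblasts and mesenchyme, led by fibronectin (Fn1), summed to 7142.0, 17590.9 and 12132.4 CPM in the same order of lines, and the 6 smooth muscle markers, led by Acta2, to 2600.2, 7202.1 and 158.1 CPM. The 7 astrocyte markers, nearly all from the gap junction gene Gja1, summed to 358.7, 220.5 and 430.6 CPM. The 6 endothelial markers, led by Flt1 and with Cldn5 at 0, summed to 152.1, 184.8 and 13.8 CPM. The 7 microglial markers, led by Tmem119 and with Aif1 at 0, summed to 14.4, 47.2 and 13.8 CPM, and the 8 oligodendrocyte and Schwann cell markers, led by Cnp and with Mog at 0, to 7.24, 14.6 and 9.86 CPM. The microglial sum without Tmem119 was 1.18 to 1.40 CPM in control, 1.07 to 1.71 in HD-het and 1.94 to 2.51 in HD-homo libraries. That of oligodendrocytes and Schwann cells without Cnp was 0.778 to 1.24, 1.77 to 1.95 and 2.15 to 3.07 CPM. Both remainders were thus highest in HD-homo cells. Without Nes the progenitor sum was 160.7 to 180.2 CPM in control, 146.1 to 149.3 in HD-het and 10.9 to 11.2 in HD-homo libraries, below control in both HD lines. Without Flt1 the endothelial sum lay between 0.773 and 1.55 CPM in all libraries, and the lines overlapped. The lower progenitor remainder in HD-het cells came from Sox2, at 128.1 CPM in control and 82.9 in HD-het cells, while Pax6 (32.1 and 48.2), Msi1 (6.01 and 7.94) and Fabp7 (0.396 and 8.23) were higher there. Of the 6 tested progenitor markers 4 were higher and 1 lower in HD-het cells, and 1 was higher and 5 lower in HD-homo cells, against control. The order of the endothelial sum rests on Flt1 alone. Without Acta2 the smooth muscle sum kept its order, at 283.0 to 354.5, 1807.5 to 1986.7 and 50.2 to 78.1 CPM. In bulk RNA, fewer cells of a type and less RNA per cell cannot be told apart.

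**Figure D1:**
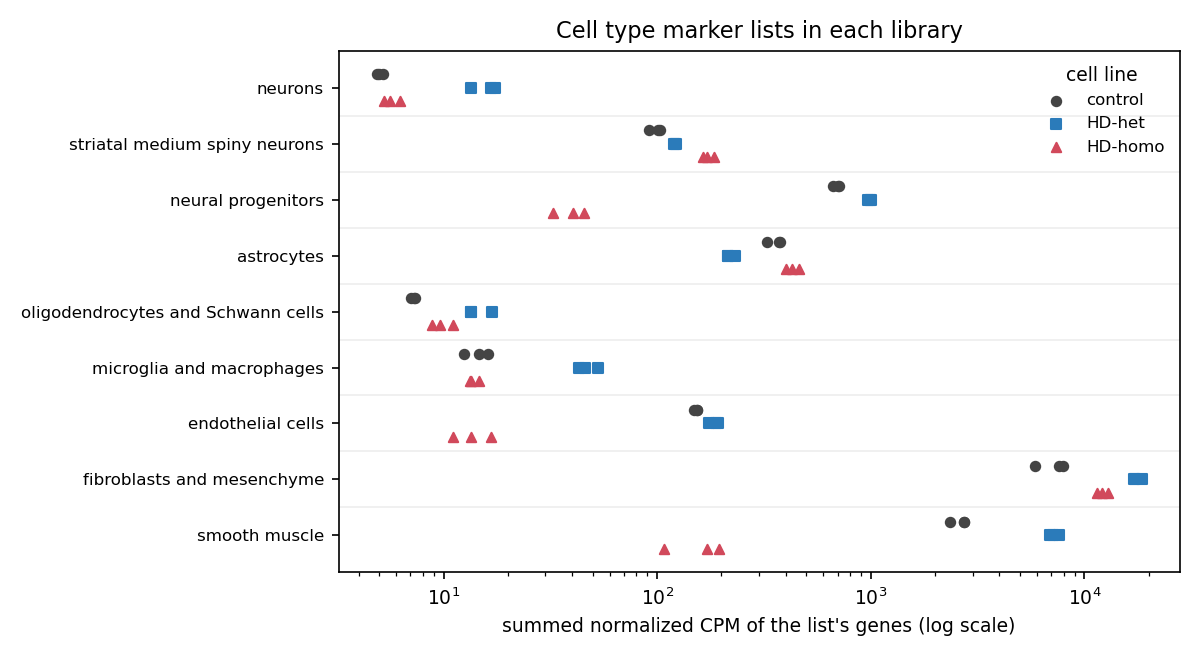
Summed normalized CPM of each cell type marker list (log axis) in the 3 libraries of each line (circles, control; squares, HD-het; triangles, HD-homo). The progenitor, endothelial and smooth muscle sums were highest in HD-het and lowest in HD-homo cells. This order rests on Flt1 alone for endothelial cells, and without Nes the progenitor sum was below control in HD-het cells. The neuronal list, mostly Eno2, lay between 4.87 and 17.4 CPM.

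Of the 10 genes, 9 passed the filter on low counts and Mapt did not. Stmn2, Nefm and Gap43 were lower in every library of both HD lines than in every control library, which was also so for 14.9% of the 13508 tested genes. Tubb3, Ncam1, Dpysl3 and Uchl1 were higher in every HD-het library and lower in every HD-homo library than in every control library, as were 10.2% of the tested genes. The opposite order, HD-het below and HD-homo above control, was found in none of the 10 genes and in 8.30% of the tested genes. Syn1 was lower in HD-homo cells alone, and Map2 overlapped between all lines. The untested Mapt was above control in HD-homo cells, by library scaling alone, and overlapped otherwise.

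Counted by comparison, the HD-het libraries lay above all control libraries for 4 of the 10 genes, below them for 3 and overlapped them for 3. The libraries of these lines did not overlap for 74.0% of all tested genes, with every HD-het library above for 38.7% and below for 35.4%. The HD-homo libraries lay below all control libraries for 8 genes, above them for 1, Mapt, and overlapped them for Map2, against 65.3% of tested genes without overlap, with every HD-homo library above for 32.7% and below for 32.6%. Because the set was selected with results of these comparisons with control known, nothing is read from these shares. Between the HD lines, the HD-homo libraries lay below all HD-het libraries for 5 genes and overlapped them for 5, against 72.8% of tested genes without overlap, 36.5% above and 36.3% below.

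**Figure D2:**
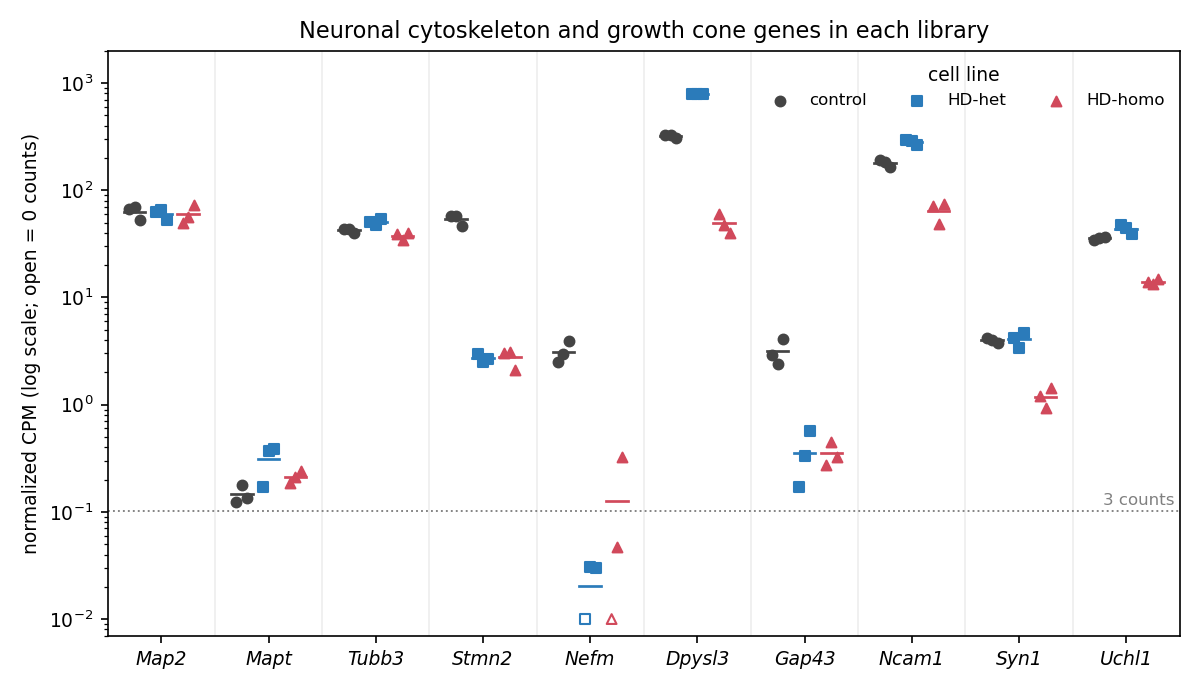
Normalized CPM (log axis) of the 10 genes in each library (circles, control; squares, HD-het; triangles, HD-homo; bars, mean of 3 libraries; open symbols, 0 counts, drawn at the bottom). Stmn2, Nefm and Gap43 were low in both HD lines, while Dpysl3 spanned 40.1 to 788.4 CPM with HD-het above control and HD-homo below it.

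The sequences before the start of 4 of the 10 genes were taken from RefSeq (GRCm38.p6), the 4 whose symbol matched an entry, and are shown because Tubb3, Syn1 and Uchl1 differed between the HD lines in the test while Map2 did not. The table used has no entry for Stmn2, Nefm, Gap43, Ncam1, Mapt or Dpysl3. Each run holds the 250 bases before the start, 5′ to 3′ on the gene's own strand, and lies at chr1:66175079-66175328 (plus strand) for Map2, chr8:123411303-123411552 (plus) for Tubb3, chrX:20920919-20921168 (minus) for Syn1 and chr5:66675871-66676120 (plus) for Uchl1. By GENCODE release M21 the genes begin farther upstream, so that the last 56 bases of the Map2 run, 129 of Tubb3, 86 of Syn1 and 30 of Uchl1 lie within the annotated gene. Capitals mark matches on either strand to 5 motifs, which are the left part of the RE1 element bound by the repressor REST (TTCAGCACC), the cyclic AMP response element (TGACGTCA), the motif known as GC box (GGGCGG), the motif called TATA (TATAA) and an E-box (CAGCTG).
Map2: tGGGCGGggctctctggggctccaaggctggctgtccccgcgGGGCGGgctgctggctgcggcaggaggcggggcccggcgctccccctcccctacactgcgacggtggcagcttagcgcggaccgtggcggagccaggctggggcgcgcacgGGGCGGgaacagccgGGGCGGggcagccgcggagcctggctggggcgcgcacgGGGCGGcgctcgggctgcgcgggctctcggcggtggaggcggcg
Tubb3: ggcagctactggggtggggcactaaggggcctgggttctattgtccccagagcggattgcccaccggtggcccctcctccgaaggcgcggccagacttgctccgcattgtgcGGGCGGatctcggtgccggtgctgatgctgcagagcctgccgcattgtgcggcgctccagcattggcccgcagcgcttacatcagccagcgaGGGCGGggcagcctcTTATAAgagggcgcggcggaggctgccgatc
Syn1: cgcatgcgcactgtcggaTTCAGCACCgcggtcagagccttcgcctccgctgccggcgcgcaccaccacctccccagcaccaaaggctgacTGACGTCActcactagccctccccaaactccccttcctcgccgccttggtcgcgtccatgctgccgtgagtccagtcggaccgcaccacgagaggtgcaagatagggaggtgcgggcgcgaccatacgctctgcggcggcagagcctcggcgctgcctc
Uchl1: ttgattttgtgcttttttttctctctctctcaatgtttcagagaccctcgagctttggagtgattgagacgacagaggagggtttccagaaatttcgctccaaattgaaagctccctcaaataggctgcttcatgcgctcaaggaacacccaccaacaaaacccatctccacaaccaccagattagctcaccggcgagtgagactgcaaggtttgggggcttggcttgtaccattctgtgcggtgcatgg

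Syn1 held the left part of RE1 at 232 bases before the start, a word found in 0.301% of the 32851 promoter windows of this length, and a cyclic AMP response element at 159 bases, found in 1.55%. Map2 held 5 GC boxes, between 249 and 44 bases before the start, and Tubb3 held 2, at 138 and 46 bases, while 32.7% of all windows have at least 1. Tubb3 also held the TATA motif on both strands, in overlapping words at 31 and 30 bases, a motif found in 22.8% of windows. These words, the Tubb3 GC box at 46 bases and the Map2 GC box at 44 bases lie downstream of the GENCODE start. None of the 5 motifs was in the Uchl1 window, and the E-box, in 13.0% of all windows, was in none of the 4. The share of G and C was 81.2% in Map2, 68.0% in Tubb3 and Syn1 and 48.8% in Uchl1, beside a median of 52.4% over all windows. A match describes the letters only, and no binding was measured.

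**Figure D3:**
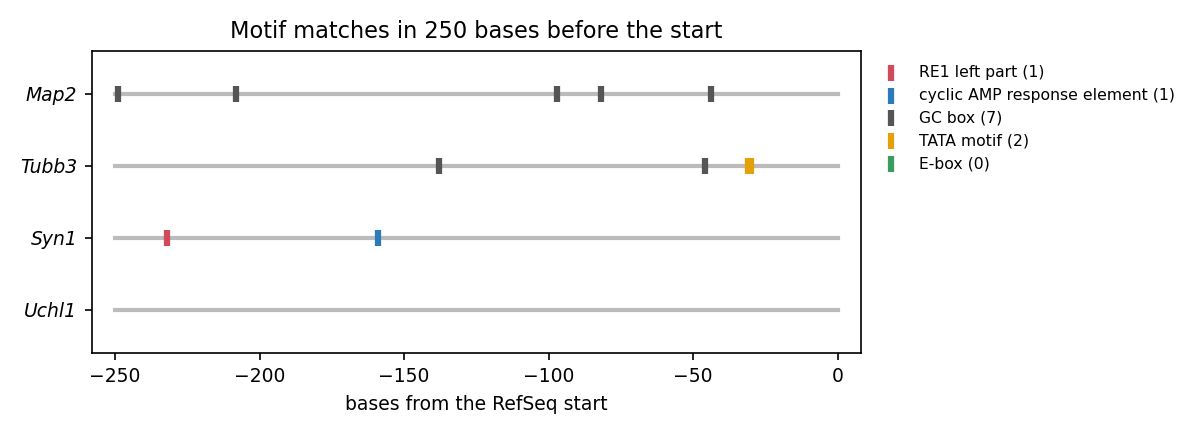
Position of the motif matches in the 250 bases before the RefSeq start (x axis, bases from the start) of Map2, Tubb3, Syn1 and Uchl1; each tick is the first base of a match and colours give the motif. Syn1 alone carries the RE1 and cyclic AMP response element matches, and Uchl1 carries none.

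Among the microtubule genes, the lines overlapped for Map2. Its control libraries had 66.4, 69.7 and 52.7 normalized CPM, its HD-het libraries 62.7, 66.1 and 52.3 and its HD-homo libraries 50, 55.7 and 73.4. The ranges of all 3 lines overlapped, and the highest value was that of HD-homo replicate 3. The mean was 62.9 ± 8.98 (SD, n = 3) in control, 60.4 ± 7.21 in HD-het and 59.7 ± 12.2 in HD-homo cells. Between the HD lines the log2 fold change was -0.02 (SE 0.147, Benjamini-Hochberg adjusted p = 0.926 in edgeR's quasi-likelihood test), so that no difference was detected beyond the spread of the libraries. Tau mRNA was near the limit of detection, with Mapt counts between 4 and 13 per library. Its level was 0.146 ± 0.0286 CPM (SD, n = 3) in control, 0.308 ± 0.121 in HD-het and 0.212 ± 0.0273 in HD-homo cells, and it was not tested. Every HD-homo library was above every control library, while the HD-het libraries overlapped both. The separation came from library scaling alone, since control replicate 2 and HD-homo replicate 1 both had 6 counts (0.178 and 0.184 CPM).

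Tubb3 had 43.4, 43.8 and 40.1 normalized CPM in control, 50.5, 47.7 and 54.1 in HD-het and 38.8, 34.7 and 39.9 in HD-homo libraries. The lines did not overlap, with HD-het highest and HD-homo just below control, where the lowest control library exceeded the highest HD-homo library by little. The mean was 1.20 times that of control in HD-het cells and 0.890 times in HD-homo cells. Between the latter lines the log2 fold change was -0.43 (SE 0.0748, Benjamini-Hochberg adjusted p = 3.3e-04 in edgeR's quasi-likelihood test). The transcript shares no 50-base word with another gene, unlike Tubb2a, of whose words 45.6% occur in Tubb2b.

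Stmn2, at chr3:8509360-8561606 (plus strand, GRCm38), showed the largest fold difference from control among the 8 tested genes of the set other than Nefm. Its control libraries had 57.6, 57.5 and 46.1 normalized CPM, its HD-het libraries 2.99, 2.50 and 2.64 and its HD-homo libraries 3.04, 3.13 and 2.09. The HD lines lay far below the lowest control library and overlapped each other. The mean was 53.7 ± 6.63 (SD, n = 3) in control, 2.71 ± 0.253 in HD-het and 2.75 ± 0.575 in HD-homo cells, which is 19.8-fold lower in HD-het and 19.5-fold lower in the HD-homo line than in control. Between the HD lines the log2 fold change was 0.03 (SE 0.172), given with no test because the selection used the low level of Stmn2 in both of them. None of the 9 marker sums was lower in all libraries of both HD lines than in all control libraries, but the progenitor sum without Nes was, in HD-het cells through Sox2 while most tested progenitor markers were higher there. The part of these genes in the result was not tested.

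Nefm, at chr14:68082590-68124846 (minus strand), had the lowest counts of the tested genes of the set. Control libraries had 81, 99 and 115 counts, HD-het libraries 0, 1 and 1 and HD-homo libraries 0, 2 and 11. All HD libraries were below all control libraries, and HD-homo replicate 3 was the only HD library above 3 counts. With the 295 control counts set against the 2 HD-het counts, the level in control cells was 157.3-fold that in HD-het cells (exact 95% counting interval 43.1 to 1304.5). The mean level was 3.12 ± 0.700 CPM (SD, n = 3) in control and 0.125 ± 0.177 in HD-homo cells, 24.9-fold lower, and the HD-homo value rests on replicate 3. From control to HD-homo cells its log2 fold change was -4.65 with that library and -6.68 without it. Nefm passed the filter on low counts through its control libraries, and its low level in both HD lines was used in the selection, so that no test between these lines is read for it. On its 5782 exonic bases Nefm overlaps the light chain gene Nefl on the opposite strand over 19.2%, and Nefl had at most 3 counts in every library.

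Gap43, a membrane-linked protein of the growth cone, followed the order of Stmn2 at a lower level. Its control libraries had 2.92, 2.41 and 4.09 normalized CPM, its HD-het libraries 0.169, 0.335 and 0.569 and its HD-homo libraries 0.276, 0.450 and 0.328. Every HD library was below every control library, and the HD lines overlapped. The mean was 3.14 ± 0.862 (SD, n = 3) in control, 0.358 ± 0.201 in HD-het and 0.351 ± 0.0893 in HD-homo cells, 8.77-fold and 8.93-fold lower than in control cells. From HD-het to HD-homo cells it differed by a log2 fold change of 0.01 (SE 0.441, Benjamini-Hochberg adjusted p = 0.986 in edgeR's quasi-likelihood test), and of -0.34 to 0.51 with single libraries left out.

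Dpysl3, a collapsin response mediator that links guidance signals to the growth cone's cytoskeleton, was the most highly counted of the 10 genes in control and HD-het cells and went opposite ways in the HD lines. Its control libraries had 327.0, 326.7 and 309.3 normalized CPM, its HD-het libraries 786.8, 788.4 and 784.3 and its HD-homo libraries 60.3, 47.9 and 40.1. No library of one line reached the range of another. The mean of 321.0 ± 10.1 (SD, n = 3) in control cells compares with 786.5 ± 2.10 in HD-het cells, 2.45-fold higher, and with 49.4 ± 10.2 in HD-homo cells, 6.49-fold lower. Between HD-het and HD-homo lines the log2 fold change was -3.99 (SE 0.125, Benjamini-Hochberg adjusted p = 3.5e-10 in edgeR's quasi-likelihood test), a 15.9-fold difference.

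Ncam1, the neural cell adhesion molecule, had 191.7, 184.4 and 164.5 normalized CPM in control, 293.1, 288.1 and 263.6 in HD-het and 70.8, 48.1 and 75.0 in HD-homo libraries. The lines were separate, with HD-het highest and HD-homo lowest, as for Dpysl3. The mean was 1.56-fold higher in HD-het than in control cells and 2.79-fold lower in the HD-homo line than in control. The HD-homo line was 4.37-fold below the HD-het line, with a log2 fold change of -2.13 (SE 0.140, Benjamini-Hochberg adjusted p = 1.3e-07 in edgeR's quasi-likelihood test). Its exons overlap those of a gene on the opposite strand over 4.81% of their length.

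Syn1, which tethers synaptic vesicles, was low in all lines. Its control libraries had 4.14, 4.04 and 3.72 normalized CPM, its HD-het libraries 4.15, 3.41 and 4.70 and its HD-homo libraries 1.20, 0.923 and 1.43. Control and HD-het libraries overlapped, and all HD-homo libraries were below them. The mean was 3.97 ± 0.220 (SD, n = 3) in control, 4.09 ± 0.646 in HD-het and 1.18 ± 0.254 in HD-homo cells, 3.36-fold lower in the HD-homo line than in control. The log2 fold change from HD-het to HD-homo cells was -1.80 (SE 0.185, Benjamini-Hochberg adjusted p = 5.0e-06 in edgeR's quasi-likelihood test).

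Uchl1, an abundant deubiquitinating enzyme of neurons, had 34.6, 36.2 and 36.6 normalized CPM in control, 47.9, 44.1 and 39.4 in HD-het and 13.8, 13.4 and 14.7 in HD-homo libraries. The HD-homo libraries were well below the others, and the lowest HD-het library was just above the highest control library. The mean was 1.22-fold higher in HD-het and 2.56-fold lower in the HD-homo line than in control. Between HD-het and HD-homo lines the log2 fold change was -1.65 (SE 0.0818, Benjamini-Hochberg adjusted p = 1.4e-08 in edgeR's quasi-likelihood test). The antisense gene Uchl1os overlaps 18.1% of the exonic bases of Uchl1, and whether the counting used the strand is not given in the sources used here.

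Between the HD lines, 5 of the 10 genes passed the test, Tubb3, Dpysl3, Ncam1, Syn1 and Uchl1, all lower in HD-homo cells. Map2 and Gap43 did not pass, Mapt was not tested, and no test is read for Stmn2 and Nefm. Of all tested genes 71.6% passed in this comparison, 36.0% higher and 35.6% lower in HD-homo cells, so that the number of calls does not exceed the background. The 4 genes highest in HD-het and lowest in HD-homo cells shared this order with the progenitor, endothelial and smooth muscle marker sums given above. Of these sums, the endothelial order rests on Flt1 alone. The progenitor sum without Nes lay below control in HD-het cells, although 4 of the 6 tested progenitor markers were higher there. Only the smooth muscle sum kept this order without its leading gene, although Myh11 and Des in that list did not share it. The part of these other cell programmes in the result was not tested.

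**Figure D4:**
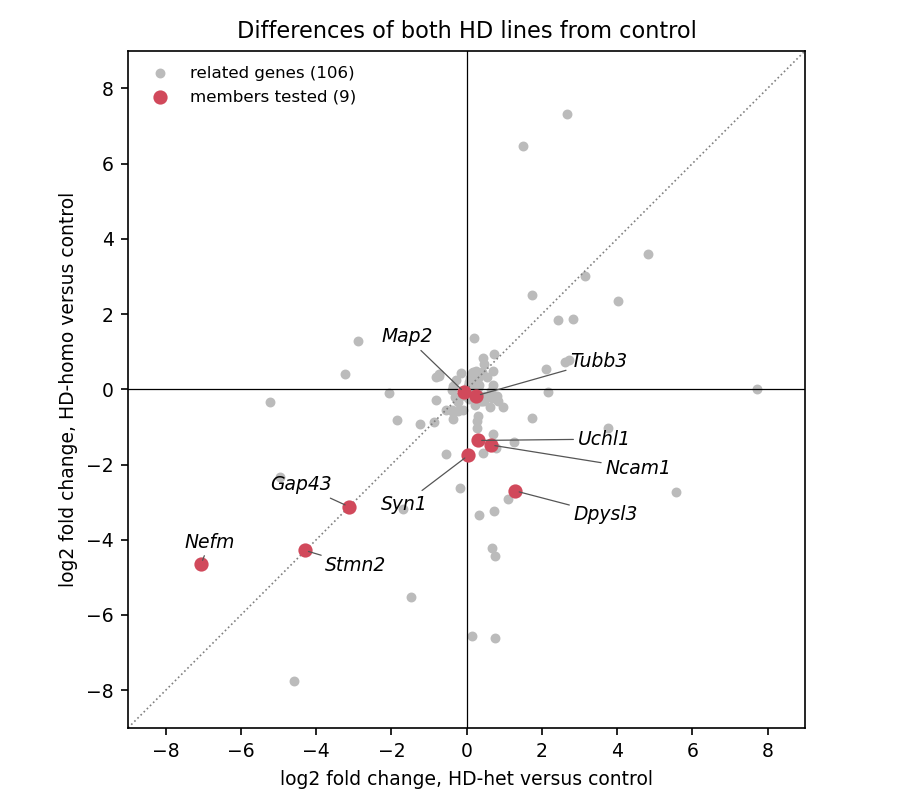
Log2 fold change of HD-het versus control (x axis) against HD-homo versus control (y axis) for the 9 tested genes of the set (red, named) and 106 tested related genes (grey); the dotted line marks equal values, and both axes share the control libraries. Stmn2 (-4.31 and -4.28) and Gap43 (-3.13 and -3.12) lie on the dotted line, while Dpysl3 (1.29 and -2.70) lies to the right of 0 and below it.

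Levels between genes were compared per length, as mean normalized CPM per kilobase of exonic sequence in GENCODE release M21. In control cells Dpysl3 was highest at 48.6 CPM per kilobase, followed by Tubb3 (22.7), Uchl1 (21.9) and Ncam1 (20.8), whose neighbouring ranges overlapped. Below them and without overlap came Stmn2 (9.59), Map2 (3.83), Gap43 (2.06), Syn1 (1.20), Nefm (0.539) and Mapt (0.0193). In HD-het cells the order began with Dpysl3 at 119.0 CPM per kilobase, Ncam1 at 32.5, and Tubb3 and Uchl1 at 27.2 and 26.8, of which the last pair overlapped. Map2 (3.67) and Syn1 (1.24) then stood above Stmn2 (0.484), Gap43 (0.235), Mapt (0.0409) and Nefm (0.00349), with no overlap between these neighbours. In HD-homo cells Tubb3 led at 20.2 CPM per kilobase, ahead of Uchl1 (8.56), Dpysl3 (7.48) and Ncam1 (7.46), which overlapped, and Map2 (3.63). Stmn2 (0.491), Syn1 (0.359) and Gap43 (0.231) overlapped as neighbours, as did Mapt (0.0282) and Nefm (0.0216) below them. Stmn2 thus ranked number 5 in control, 7 in HD-het and 6 in HD-homo cells.

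The genes most like Stmn2 across the 9 libraries, by the root mean square (RMS) difference of centred log2 CPM, were Krt20 (0.29), Pcdhgb5 (0.38), Mid1, Wnt7a and Efcab12 (0.45 each). Mid1, a microtubule-linked ubiquitin ligase, had 254.0 ± 28.9 CPM (SD, n = 3) in control, 22.1 ± 0.366 in HD-het and 11.5 ± 0.668 in HD-homo cells, and the ligand Wnt7a had 13.9 ± 2.81, 0.936 ± 0.282 and 1.04 ± 0.213 CPM. For Nefm the nearest genes were farther, with RMS differences of 0.98 for Foxl2, 1.01 for Bmp8b and Rnf183, 1.02 for Sprr2k and 1.1 for Trpa1. Foxl2 and Trpa1 were at 0 counts in all HD-het libraries and at 1.45 and 2.75 CPM in control cells. Within the set, Syn1 and Uchl1 were nearest to each other (0.26), as were Map2 and Tubb3 (0.25) and Stmn2 and Gap43 (0.78). Ncam1 was nearest to Uchl1 (0.27), and Dpysl3 to Ncam1 (0.80).

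Related genes of the same families and structures, 143 in 11 lists, were not used in choosing the set and were tested in all comparisons, which share libraries in pairs. Their lists were chosen with earlier results of these data known, so that their counts and medians are a description beside those of all genes. Of the 106 that passed the filter, 57 were higher and 24 lower in the HD-het line than in control, a median log2 fold change of 0.27. Over all 13508 tested genes 65.1% were called, 33.8% higher and 31.4% lower, with a median of 0.03. In HD-homo against control cells 27 related genes were higher and 46 lower, with a median of -0.13, beside 58.6% of all genes, 29.6% higher and 28.9% lower, with a median of 0.01. The HD-homo line had 25 higher and 59 lower than the HD-het line, with a median of -0.28, while 71.6% of all genes were called, 36.0% higher and 35.6% lower, with a median of 0.00. The related genes called were 76.4%, 68.9% and 79.2% of those tested in the 3 comparisons. Setting genes at 0 in a line to their bound left these medians of the related genes as they were.

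**Figure D5:**
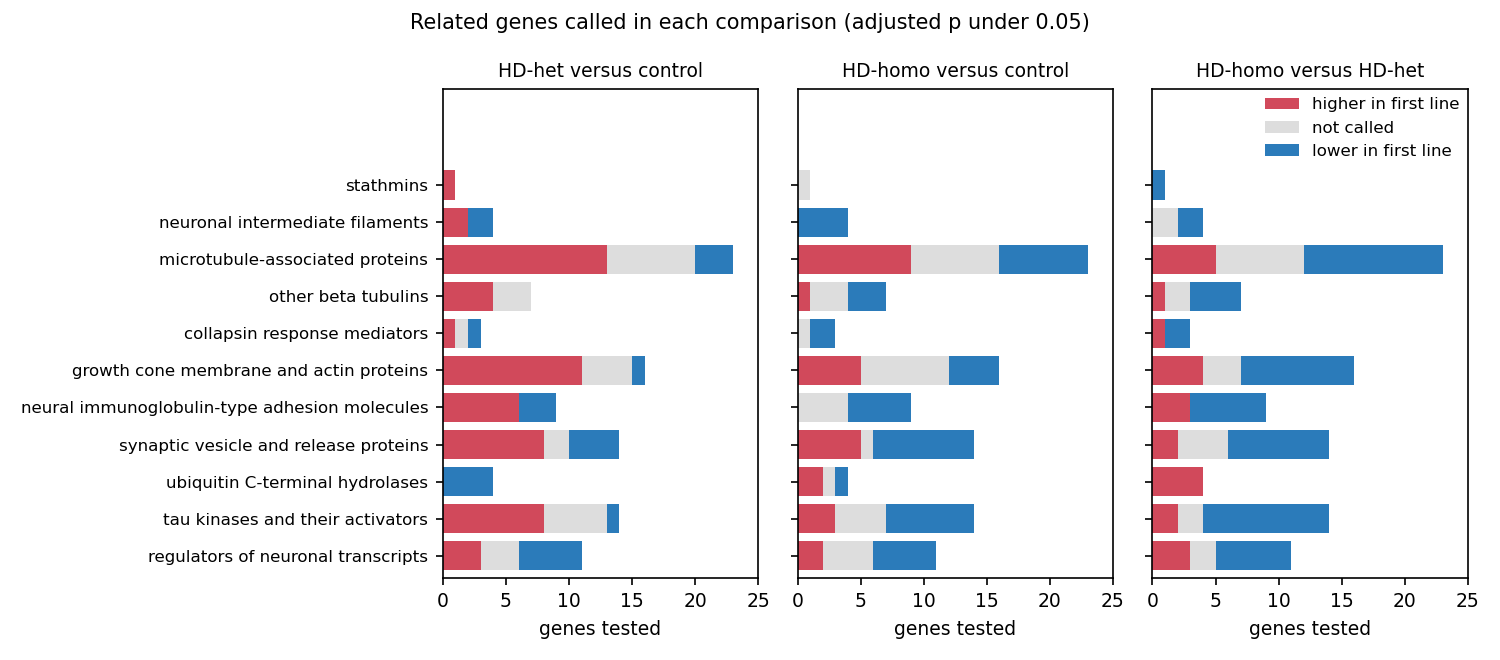
Number of tested related genes (x axis) of each list that were higher (red), not called (grey) or lower (blue) in the first line of each comparison in edgeR's quasi-likelihood test (Benjamini-Hochberg adjusted p under 0.05). The intermediate filament, beta tubulin, collapsin response mediator, adhesion, synaptic vesicle, kinase and regulator lists had more lower than higher genes in both comparisons of the HD-homo line.

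Among other stathmins, only Stmn1 was tested, and Stmn3 and Stmn4 had at most 12 counts per library. Stmn1, a stathmin of dividing cells, had 137.8 ± 3.02 CPM (SD, n = 3) in control, 159.8 ± 5.46 in HD-het and 137.2 ± 19.5 in HD-homo cells. Log2 fold changes were 0.21 in HD-het and -0.01 in HD-homo against control cells and -0.22 between the HD lines. The first passed the test narrowly and was lost without any single control or HD-het library or HD-homo replicate 1 (0.19 to 0.24) and under 3 other settings. The last was lost without any control library, HD-het replicate 1 or 3 or HD-homo replicate 1 or 3 (-0.22 to -0.12) and under 2 other settings, library totals among them in both cases. Of its 50-base words 18.9% occur in other genes, so that its level is uncertain.

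Of 6 intermediate filament genes, 4 were tested, namely Ina, Prph, Nes and vimentin (Vim), the last 2 of which are not particular to neurons. HD-het cells had 2 higher and 2 lower than control cells (median log2 fold change 0.22), while HD-homo cells had 4 lower than control (median -0.83) and 2 lower than HD-het cells (median -1.30). Internexin alpha (Ina) was at 1.5 ± 0.193 CPM (SD, n = 3) in control, 5.00 ± 1.40 in HD-het and 0.888 ± 0.116 in HD-homo cells. A log2 fold change of 1.73 in HD-het cells passed the test, and that of -0.77 in HD-homo cells did so in the full data, but not without control replicate 1 (-0.70), control replicate 2 (-0.74) or HD-homo replicate 2 (-0.66). Peripherin (Prph) fell by 0.87 on the log2 scale in HD-het and by 0.88 in HD-homo cells. Nestin, also a progenitor marker above, rose by 0.67 in HD-het and fell by 4.21 in HD-homo cells, from 526.3 ± 34.6 CPM (SD, n = 3) in control to 28.4 ± 6.52. Vim, named after its values were seen, fell by 0.24 in HD-het and by 0.34 in HD-homo cells, from 5383.0 CPM in control. Nefl and the heavy chain gene Nefh had at most 17 counts per library and were not tested.

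Of 24 genes for microtubule-associated proteins, 23 were tested, 13 of them higher and 3 lower in the HD-het line than in control (median log2 fold change 0.44). HD-homo cells had 9 higher and 7 lower than control cells (median 0.11), and 5 higher and 11 lower than HD-het cells (median -0.28). Map1b, a microtubule protein of growing axons, was at 234.5, 247.8 and 228.0 CPM in the control, 71.2, 72.7 and 74.8 CPM in the HD-het and 28.4, 28.4 and 20.9 CPM in the HD-homo libraries. It fell in both HD lines without overlap, by 1.70 in HD-het and by 3.19 in HD-homo cells on the log2 scale. Map1a, its relative of mature dendrites, rose in both, with log2 fold changes of 0.74 and 0.93. Tppp3 rose by 1.26 in HD-het and fell by 1.41 in HD-homo cells, and the doublecortin-like kinase Dclk1 rose by 1.36 in HD-homo cells. Doublecortin (Dcx), a marker of young neurons, had at most 1 count in any library.

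All 7 other beta tubulins were tested. HD-het cells had 4 of them higher than control cells (median log2 fold change 0.21), and HD-homo cells had 1 higher and 3 lower than control (median -0.13) and 1 higher and 4 lower than HD-het cells (median -0.33). Tubb6 had log2 fold changes of 0.41 in HD-het and -0.30 in HD-homo cells, Tubb2b of 0.29 and -0.72, and Tubb4b of 0.21 and 0.41, beside the values of 0.26 and -0.17 for Tubb3. Tubb2b and Tubb4b share 36.9% and 37.8% of their 50-base words with other genes, so that their values are uncertain.

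Of 4 other collapsin response mediators, 3 were tested. HD-het cells had 1 higher and 1 lower than control cells (median log2 fold change -0.22), and HD-homo cells had 2 lower than control (median -0.82) and 1 higher and 2 lower than HD-het cells (median -0.37). Crmp1 had 0, 1 and 1 counts in the control libraries and 0 in all HD-homo libraries, against 1.33, 0.975 and 1.17 CPM in the HD-het libraries. Its pooled level in HD-het cells was 55.3-fold that in control cells (exact 95% counting interval 15.0 to 462.3), and it passed the test. Crmp1 passed the filter on low counts through its HD-het libraries, where it was highest, so that nothing is read from this call. Dpysl5 fell by 1.84 on the log2 scale in HD-het cells, from 0.608 to 0.165 CPM, and by 0.82 in HD-homo cells, where the call was lost without control replicate 2 (-0.69) or 3 (-0.75), HD-het replicate 3 (-0.82) or any single HD-homo library (-0.87 to -0.74), and with the replicate block, the DESeq2 Wald test and no filter. Its rise of 1.02 from HD-het to HD-homo cells was lost without HD-het replicate 2 or 3 or HD-homo replicate 1 or 3 (0.74 to 0.98), and with the replicate block and the DESeq2 Wald test. Dpysl2 fell by 0.59 in HD-homo cells against control and by 0.37 against HD-het cells, where the call was lost without replicate 1 or 3 of either HD line (-0.36 to -0.24). Dpysl4 had at most 13 counts per library.

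Of 20 growth cone membrane and actin genes, 16 were tested, 11 of them higher and 1 lower in the HD-het line than in control (median log2 fold change 0.35). HD-homo cells had 5 higher and 4 lower than control cells (median 0.08), and 4 higher and 9 lower than HD-het cells (median -0.26). Basp1, which resembles Gap43 in its place at the membrane, was at 268.3 ± 12.1 CPM (SD, n = 3) in control, 324.5 ± 14.8 in HD-het and 131.7 ± 20.2 in HD-homo cells. It fell by 1.03 on the log2 scale in HD-homo cells, and its 0.27 in HD-het cells lost the call without control replicate 1 (0.26) or 2 (0.25) or HD-het replicate 1 (0.27) or 3 (0.24). Marcks and Marcksl1, actin-binding kinase substrates, had log2 fold changes of 0.27 and 0.19 in HD-het and -0.01 and 0.30 in HD-homo cells. The HD-het calls of both were lost without single libraries, for Marcks without control replicate 3 (0.26) or HD-het replicate 2 (0.24), and for Marcksl1 without any single control or HD-het library or HD-homo replicate 1 (0.17 to 0.21), and also with DESeq2 size factors, the DESeq2 Wald test and no filter. Gprin1 rose by 2.12 and the actin-binding Ablim1 fell by 2.06 in HD-het cells. In HD-homo cells Shtn1 rose from 0.0816 to 7.67 CPM, by 6.46 on the log2 scale and by 7.20 without control replicate 2, and Cap2 fell from 4.61 to 0.203 CPM, by 4.42. Shtn1 passed the filter on low counts through its HD-homo libraries, where it was highest, so that its rise is given as a description.

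Of 23 neural adhesion genes, 9 were tested. HD-het cells had 6 higher and 3 lower than control cells (median log2 fold change 0.70), and HD-homo cells had 5 lower than control (median -0.35) and 3 higher and 6 lower than HD-het cells (median -1.0). L1cam, an axonal adhesion molecule, was at 12.3, 13.1 and 10.3 CPM in the control, 0.282, 0.396 and 0.270 CPM in the HD-het and 9.75, 12.1 and 6.05 CPM in the HD-homo libraries. It fell in HD-het cells, with a log2 fold change of -5.22, while its -0.35 in HD-homo cells did not pass the test in the full data but did so without HD-homo replicate 2 (-0.59) and with the replicate block (-0.39). Leaving out HD-homo replicate 3 instead gave -0.12. Cadm1 was at 123.9, 120.0 and 132.3 CPM in the control, 219.7, 215.1 and 200.5 CPM in the HD-het and 1.62, 1.47 and 0.746 CPM in the HD-homo libraries, the same order of lines as Ncam1. St8sia2, which adds polysialic acid to Ncam1, rose by 1.09 in HD-het and fell by 2.91 in HD-homo cells on the log2 scale, from 38.8 ± 4.65 CPM (SD, n = 3) in control to 82.6 ± 10.8 and 5.05 ± 2.31. Ncam2 had at most 2 counts in any library.

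Of 21 synaptic vesicle and release genes, 14 were tested, 8 of them higher and 4 lower in the HD-het line than in control (median log2 fold change 0.22). HD-homo cells had 5 higher and 8 lower than control cells (median -0.67), and 2 higher and 8 lower than HD-het cells (median -0.35). Among the other synapsins, Syn2 had 3 counts in all control libraries together and 15 to 25 per HD-het library, a pooled 18.1-fold (exact 95% counting interval 5.91 to 90.5). This difference passed the test, with a log2 fold change of 4.03 that was 4.85 without control replicate 2. Syn2 passed the filter on low counts through its HD-het libraries, where it was highest, so that nothing is read from this call. Syn3 fell by 1.73 on the log2 scale in HD-homo cells, from 0.375 to 0.112 CPM. The active zone gene Bsn rose by 3.15 and 3.00 in the HD lines, to 1.24 and 1.12 CPM, and Snap91 fell by 1.48 in HD-het cells and had at most 1 count per HD-homo library. Syn3 and Snap91 passed the filter through their control libraries, where they were highest, so that their falls are given as a description.

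All 4 other ubiquitin C-terminal hydrolases were tested. HD-het cells had 4 of them lower than control cells (median log2 fold change -0.56), and HD-homo cells had 2 higher and 1 lower than control (median 0.17) and 4 higher than HD-het cells (median 0.74), while Uchl1 was lower there. Uchl3 had log2 fold changes of -0.74 in HD-het and 0.36 in HD-homo cells, and Uchl4 of -0.73 and 0.40. Uchl4 shares 26.2% of its 50-base words with Uchl3, so that the reads of these genes may be split between them and their values are uncertain. Uchl5 fell by 0.20 in HD-homo cells and was lowest in HD-het cells, at 71.8 CPM in control, 57.4 in HD-het and 62.6 in HD-homo cells. For HD-homo against HD-het cells its log2 fold change of 0.13 lost the call without any single library other than HD-homo replicate 2 (0.11 to 0.13), with no filter and with only the 2 lines compared.

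Of 15 kinases that act on tau and their activators, 14 were tested, 8 of them higher and 1 lower in the HD-het line than in control (median log2 fold change 0.29). HD-homo cells had 3 higher and 7 lower than control cells (median -0.19), and 2 higher and 10 lower than HD-het cells (median -0.41). Cdk5r1, the activator of Cdk5, rose by 0.97 on the log2 scale in HD-het cells, Mark1 rose by 0.67 and Ttbk1 fell by 3.33 in HD-homo cells, and Mark2 fell by 0.39 in HD-het cells.

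Of 16 regulators of neuronal transcripts, 11 were tested, 3 of them higher and 5 lower in the HD-het line than in control (median log2 fold change 0.09). HD-homo cells had 2 higher and 5 lower than control cells (median -0.08), and 3 higher and 6 lower than HD-het cells (median -0.26). Rest, the repressor of neuronal genes that binds RE1, had 45.9 ± 4.29 CPM (SD, n = 3) in control, 48.8 ± 4.24 in HD-het and 56.8 ± 11.4 in HD-homo cells. None of its differences passed the test in the full data. That of 0.31 between HD-homo and control cells did so without control replicate 1 (0.38), HD-homo replicate 1 (0.40) or HD-homo replicate 3 (0.38), and with 3 other settings, but it was 0.13 without HD-homo replicate 2, the library with the highest level. The RNA-binding protein gene Elavl2 fell from 18.8 ± 1.27 CPM (SD, n = 3) in control to 0.780 ± 0.114 in HD-het and 0.0792 ± 0.0686 in HD-homo cells, and Nova1 rose by 4.83 and 3.60 on the log2 scale, the second value being 2.87 without HD-homo replicate 2.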

How the data were processed

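The authors deposited RNA-seq read counts per gene symbol for 9 libraries, 3 from each line, as whole numbers without normalization, which may be rounded estimates. The submitters' processing notes name cutadapt, Bowtie 1.1.2, RSEM 1.3.0, DESeq2 and the builds GRCm38.p5 and mm10. Of 36410 listed genes, 26 carry a date instead of a symbol and 2 are second entries.

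R 4.3.3 and edgeR 4.0.16 were used. The filterByExpr function (minimum count 10, lines as groups) kept 13508 genes. TMM factors lay between 0.984 and 1.03, and normalized CPM used the resulting totals over tested genes. The quasi-likelihood fit took all 9 libraries with a mean for each line. Each pair of lines was tested in a two-sided manner, with Benjamini-Hochberg adjustment over all tested genes, and an adjusted p under 0.05 is called passing the test. Fold changes are ratios of mean normalized CPM, log2 fold changes come from the fit, and the SE was taken from the log2 fold change and the F statistic. The scripts were tested on simulated data.

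The 10 genes and all lists were chosen with earlier results of these data known. Named related genes are all stathmins, neurofilament-type genes and collapsin response mediators, with Basp1, Marcks, Marcksl1, Map1a, Map1b, Ncam2, L1cam, Syn2, Syn3, Uchl3, Dcx and Rest, and from each list the called genes with the largest rise and fall against control, where no libraries overlapped and the higher line reached 1 CPM. For Stmn2 and Nefm the 5 genes outside the set with the smallest root mean square difference of log2 CPM (prior count 1, centred over 9 libraries) are named. Exon lengths, overlaps and shared 50-base words come from GENCODE release M21 (GRCm38), and 250 bases before each start from RefSeq (GRCm38.p6).

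Alternatives were DESeq2 size factors, library totals, the Wald test of DESeq2 1.42.0, no filter, at least 10 counts in every library, only the 2 lines compared, the replicate number as a block, leaving out each library, and a size threshold of 1 on the log2 fold change. The ratio of mean CPM in place of the fitted fold change was chosen after seeing the data.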

Additional observations from a re-analysis of the deposited data

Results flagged for a closer look

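For 15 of the 47 tested genes that were looked at singly, every HD-het library and every HD-homo library lay on opposite sides of all control libraries, and the HD lines differed in edgeR's quasi-likelihood test (Benjamini-Hochberg adjusted p under 0.05). Of these, 13 had HD-het above and HD-homo below control, an order found in 10.2% of all 13508 tested genes, and 2 had the opposite order, found in 8.30%. Some of the related genes were named for large changes without overlap, so that nothing is read from these numbers beside the shares of all genes. Lines on opposite sides of all control libraries cannot overlap each other, so that the test between the HD lines adds little here. The comparison of the HD lines shares its libraries with the comparisons against control, of which earlier results were known when the 10 genes were chosen. The values are log2 fold changes of HD-homo versus HD-het cells.

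Among the 10 neuronal genes these values were -3.99 for Dpysl3, -2.13 for Ncam1, -1.65 for Uchl1 and -0.43 for Tubb3. Each of these was above control in HD-het cells and below it in HD-homo cells.

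Among related genes with the same order of lines, the filament genes Nes and Ina had -4.89 and -2.50, and the tubulin genes Tubb2b and Tubb6 had -1.0 and -0.71. The adhesion gene Cadm1 had -7.36 and the polysialic acid enzyme gene St8sia2 had -4.00. The growth cone genes Cap2 and Basp1 had -5.18 and -1.30, and the microtubule gene Tppp3 had -2.67.

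The ubiquitin hydrolase genes Uchl3 and Uchl4, which share sequence, had the opposite order, below control in HD-het cells and above it in HD-homo cells, with 1.11 and 1.12.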

How the results depend on the processing

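When a size of 1 on the log2 scale was also required, the genes called numbered 2490 of 8797 in HD-het versus control, 2574 of 7910 in HD-homo versus control and 3285 of 9666 between the HD lines, and related genes 26 of 81, 28 of 73 and 45 of 84. This setting can only remove calls. All other counts stayed within 1.5 times, and no value that passed the test in the full data or under an alternative changed sign, while values near 0 that did not pass, such as those of Map2 and Gap43 between the HD lines, did. Counting each single-gene value once per alternative, 85 lost and 18 gained a call, 2122 did neither, and 1 untested value, that of Nefm in HD-homo versus control cells, moved beyond its spread without HD-homo replicate 3.

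Same-numbered libraries were correlated over genes in their deviations from the line means with r from -0.00919 to 0.122, and in 15 of 18 pairings of a library with another line the same number gave the highest r. The numbers are not known to mark a shared culture. A replicate block called 9160, 8372 and 9938 genes for HD-het versus control, HD-homo versus control and HD-homo versus HD-het, with 85, 75 and 87 related genes in that order and 5 of the 10 genes in the last.

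Leaving out 1 library at a time gave 7865 to 9216, 6842 to 8068 and 8977 to 9675 genes called in the same order of comparisons. Related genes called numbered 76 to 89, 67 to 75 and 78 to 87, and 5 to 6 of the 10 genes were called between the HD lines (6 without HD-homo replicate 1, with Nefm, whose test is not read). The median log2 fold change of all genes lay between 0.00 and 0.03 under each scaling.

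Low counts limit Nefm, Mapt, Gap43 and most neuronal markers, for which differences near the floor of 3 counts were not detectable at this depth.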
